A study of Mus musculus with 10 samples.

Results

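Kinesins are motor proteins that use ATP to walk along microtubules or to take their ends apart. Some act in dividing cells, where they build the spindle, move chromosomes and complete the cut between the daughter cells, and their genes are read mostly in the later part of the cell cycle. Others carry vesicles, mitochondria, RNA granules and filament proteins, and several of these are abundant in neurons, where they supply the axon from the cell body. Neuroblastoma arises from sympathetic neuroblasts, cells that can both divide and grow axons.

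The kinesins on the array were taken as all genes whose name begins with Kif or Kifc followed by a number. They were 43 genes on 62 distinct probes, and 38 of them were measured, among 22263 genes measured in all. A gene counted as measured when a probe was well above background in the tumour channel on at least 5 of the 10 arrays, and its brightest probe represented it. Kif14, Kif2b and Kif4b were well above background on 0 arrays, Kif27 on 2 and Kif9 on 3, so these genes had no tested value. By role the genes were sorted into 14 mitotic, 9 neuronal transport, 6 general transport, 8 ciliary and 6 other kinesins.

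The tumours were 5 neuroblastomas of mice that carried both ALK F1174L, an activated form of a receptor tyrosine kinase, and a MYCN transgene (ALK/MYCN), and 5 neuroblastomas of mice that carried the MYCN transgene without the ALK allele (MYCN). All were untreated, and each array held 1 tumour. The double mutants came from a cross of C57BL/6 x 129X1/SvJ, whereas MYCN mice were pure 129X1/SvJ, which means that an effect of the ALK allele and one of strain cannot be told apart. Tumour RNA carried the dye Cy3, and a common reference RNA from 11 mouse cell lines carried Cy5 on the same array. The promoters that drive the transgenes and the ages of the mice are not given in the sources used here. A level is given below as the log2 ratio of tumour over reference, and a difference is the mean of the ALK/MYCN tumours minus the mean of the MYCN tumours on that scale, with its SE. "Rose", "fell" or "passed" means a limma adjusted p under 0.05 over all genes (Benjamini-Hochberg).

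All 12 markers of sympathetic neuroblasts, such as Th and Dbh, enzymes of catecholamine synthesis, were well above background on every array and above the reference in every tumour. Markers of other tissues set some tumours apart, and these levels are medians of log2 ratios centred for each gene. Skeletal muscle markers (6 genes) stood at 5.13 in MYCN 2 and 2.65 in MYCN 1, against -1.57 to -0.99 in the ALK/MYCN tumours. Adrenal cortex markers (3 genes) stood at 3.51 in ALK/MYCN 3 and below 0 in the other tumours. The endothelial level ran between -0.76 and 0.14 in ALK/MYCN tumours and between -0.02 and 0.96 in MYCN tumours, with 8 of 10 markers lower, where 12.2% of all genes were lower and 14.2% higher. The macrophage level ran between -0.63 and -0.18 in ALK/MYCN tumours and between -0.05 and 0.74 in MYCN tumours, with 7 of 10 lower and 1 higher. The fibroblast level (8 genes) ran between -1.90 and -0.16 in ALK/MYCN tumours, against 1.65, 1.40 and 2.30 in MYCN 2, 3 and 4, -1.79 in MYCN 1 and -0.23 in MYCN 5. All 8 fibroblast differences were negative, with a median of -1.38, and 1 of them passed. The lymphocyte level (5 genes) ran between -0.26 and 0.0050 in ALK/MYCN tumours and between -0.18 and 0.34 in MYCN tumours, with 2 of 5 lower. Fewer cells of a type and less RNA per cell cannot be told apart in RNA of whole tumours, and the part these cells have in the kinesin values was not tested.

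Of the 38 measured kinesins, 6 rose and 5 fell in ALK/MYCN tumours. Those shares lie close to the 14.2% of all genes that rose and the 12.2% that fell (26.5% in either direction), so the family as a whole was called about as often as other genes. The median difference was -0.017 over the 38 kinesins and -0.0035 over all genes. The calls divided by role. All 5 that fell were among the 12 measured mitotic kinesins, of which none rose. Of the 9 neuronal transport kinesins, 4 rose and none fell. Kif3a, of the ciliary class, and Kif26a, of the other class, also rose. Roles were assigned with earlier results of these data known, so this division is not a test of the classes.

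**Figure D1:**
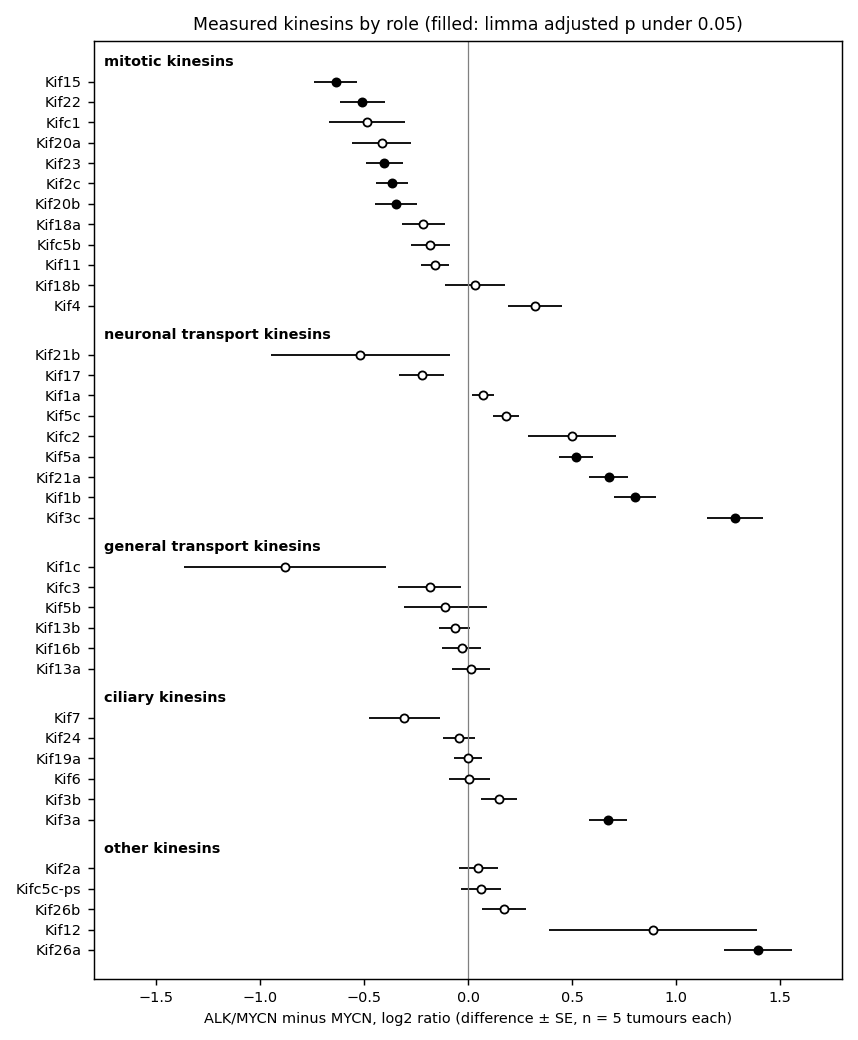
Difference of each of the 38 measured kinesins (ALK/MYCN minus MYCN, log2 ratio, with SE, 5 tumours each), grouped by role; filled points passed limma at an adjusted p of 0.05. All 5 filled points of the mitotic class lie left of 0 and all 4 of the neuronal transport class lie right of it.

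The mitotic kinesins were lower in ALK/MYCN tumours by a median of 0.36 on the log2 scale (median difference -0.36 over 12 genes), with 10 of 12 differences below 0. Kif15, Kif22, Kif23, Kif2c and Kif20b fell. Kif11, the motor that pushes spindle poles apart, and Kif20a, which acts in cytokinesis, did not pass. The falls were modest, between 0.64 and 0.79 of the MYCN level on the linear scale.

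Kif15, a motor that helps to keep the spindle bipolar, had log2 ratios of -0.11, 0.21, -0.07, -0.30 and 0.06 in ALK/MYCN tumours 1 to 5, against 0.67, 0.49, 0.54, 0.79 and 0.49 in MYCN tumours 1 to 5. The groups did not overlap, and the highest ALK/MYCN tumour was below the lowest MYCN tumour. The difference was -0.64 ± 0.10 (SE, n = 5 each; limma adjusted p = 0.0025), the largest fall among the mitotic kinesins.

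Kif22, a chromokinesin that binds chromosome arms, had 0.25, 0.61, 0.19, 0.18 and 0.30 in ALK/MYCN tumours, against 1.10, 0.64, 0.86, 0.68 and 0.79 in MYCN tumours. ALK/MYCN 2 came close to MYCN 2, and the groups did not overlap. Its difference was -0.51 ± 0.11 (SE, n = 5 each; limma adjusted p = 0.0090).

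Kif23, the motor of the centralspindlin complex at the midzone, had -0.67, -0.68, -0.58, -0.42 and -0.58 in ALK/MYCN tumours, against -0.02, -0.32, -0.05, -0.14 and -0.39 in MYCN tumours. The groups came within a small distance of each other at ALK/MYCN 4 and MYCN 5 without overlapping. Its difference was -0.40 ± 0.09 (SE, n = 5 each; limma adjusted p = 0.0097).

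Kif2c, which depolymerises microtubule ends at centromeres, had 0.02, 0.32, 0.10, 0.34 and 0.16 in ALK/MYCN tumours, against 0.49, 0.54, 0.57, 0.52 and 0.65 in MYCN tumours. The MYCN tumours were tightly grouped and all higher. The difference was -0.37 ± 0.08 (SE, n = 5 each; limma adjusted p = 0.0073), and a second Kif2c probe gave -0.32 (limma adjusted p = 0.024 over all kept probes).

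Kif20b, a kinesin of late cytokinesis, had -0.29, -0.43, -0.55, -0.51 and -0.58 in ALK/MYCN tumours, against 0.18, -0.19, -0.06, -0.27 and -0.28 in MYCN tumours. The gap between the groups, at ALK/MYCN 1 and MYCN 5, was the narrowest of the 5 genes. The difference was -0.35 ± 0.10 (SE, n = 5 each; limma adjusted p = 0.030), and the call was lost on leaving out any 1 of ALK/MYCN tumours 3, 4 and 5 or MYCN 3.

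Kif11 had -0.02, 0.13, 0.12, 0.20 and 0.16 in ALK/MYCN tumours, against 0.40, 0.15, 0.30, 0.25 and 0.26 in MYCN tumours. The groups overlapped, and its difference was small, -0.16 (95% interval -0.31 to -0.0091; limma adjusted p = 0.11). Kif20a had -0.70, -0.34, -0.53, -0.15 and -0.16 in ALK/MYCN tumours, against 0.39, -0.12, 0.18, -0.14 and -0.10 in MYCN tumours. These groups did not overlap, but ALK/MYCN 4 and MYCN 4 almost met. The difference of -0.42 (95% interval -0.73 to -0.10) had a limma adjusted p of 0.053.

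Kifc1, a minus-end motor that bundles spindle microtubules, had a difference of -0.48 (limma adjusted p = 0.075), with MYCN tumours spread between 0.23 and 1.25. Kif18a, which dampens chromosome movements at the plate, had -0.22, and Kif18b had 0.03. The probe named Kifc5b, a close relative of Kifc1 whose signal may be shared with it, had -0.18. Kif4, a chromokinesin, went the other way at 0.32 (limma adjusted p = 0.098), with 0.31 to 1.05 in ALK/MYCN tumours and 0.12 to 0.50 in MYCN tumours. Without ALK/MYCN 1 it passed as higher, at 0.41 (limma adjusted p = 0.037). In all, 6 mitotic kinesins had groups that did not overlap, as did 19.9% of all genes.

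The count of mitotic falls depended on a few tumours and on centring. It was 3 without ALK/MYCN 3, MYCN 2 and MYCN 5, and 3 without the tumours with muscle or adrenal markers (ALK/MYCN 3, MYCN 1 and MYCN 2), with median differences that kept their sign. With arrays centred on their medians it was 2. With arrays centred on spike-in spots only Kif15 fell and Kif4 rose, and the mitotic median was -0.10 where the median of all genes stood at 0.25. Each of the 3 slides held arrays of both groups, but only a single tumour of at least 1 group. Slide 1 held ALK/MYCN 2 and MYCN 1. Slide 2 held ALK/MYCN 1, 3 and 4 with MYCN 4, and slide 3 held ALK/MYCN 5 with MYCN 2, 3 and 5. Within the slides the mitotic median was -0.38, -0.23 and -0.35 on slides 1, 2 and 3.

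**Figure D2:**
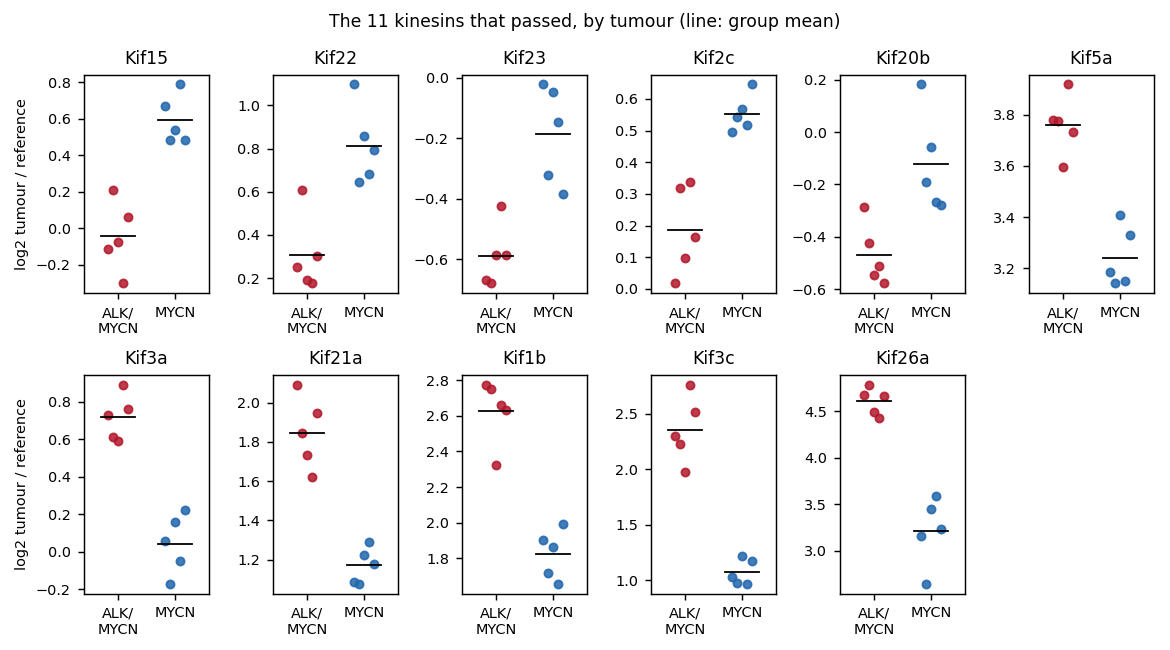
Log2 tumour over reference of the 11 kinesins that passed, in each ALK/MYCN tumour (left, red) and each MYCN tumour (right, blue), with the group mean as a line; each panel has its own vertical scale. In none of these panels, shown because the genes passed, do the groups overlap. The groups did not overlap for 12 of the 38 measured kinesins and for 19.9% of all genes.

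Mitotic genes often carry the letters TTTGAA near their start, the cell cycle genes homology region, which in mammals is bound by the MuvB complexes that hold these genes silent in resting cells and open them with Mybl2 and Foxm1 before division. Promoters were read from RefSeq (assembly GRCm38.p6; 250 bases before to 50 after each start), which held 33 of the 43 kinesins. TTTGAA on either strand was found in 11 of 13 mitotic kinesin genes, or 84.6%, against 20.2% of 27025 genes. In the same whole window it was in 1 of 6 neuronal, 0 of 3 general transport, 1 of 7 ciliary and 1 of 4 other kinesins. Within 50 bases of the start it was found in 9 of 13 mitotic kinesin genes (69.2%), against 5.72% of all genes. There it was in 1 of 6 neuronal, 0 of 3 general transport, 0 of 7 ciliary and 1 of 4 other kinesins. CCAAT on either strand was in 9 of 13 mitotic kinesins (69.2%) and in 41.1% of all genes. It was as frequent in the ciliary kinesins, at 5 of 7 (71.4%), and was in 1 of 6 neuronal, 0 of 3 general transport and 1 of 4 other kinesins. CACGTG, the palindrome bound by MYC proteins, was in 0 of 13 mitotic kinesins and in 8.09% of all genes. Every member that fell holds TTTGAA, and so do Kif11, Kif18b, Kif4, Kifc1 and Kifc5b, which did not pass. Among measured mitotic kinesins with a promoter in RefSeq, only Kif18a lacks it. Whether the motif marks the members that fell therefore cannot be judged. A match of letters is not evidence of a bound site.

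The stretches below show the start regions of the 5 mitotic kinesins that fell, then of Kif3c and Kif26a, the kinesins of the largest rises, from 120 bases before to 50 bases after the start (GRCm38.p6, each 5′ to 3′ on its gene's strand). Capitals mark TTTGAA or its reverse complement TTCAAA, and CCAAT or its reverse complement ATTGG.
Kif15, chr9:122950961-122951130, plus strand: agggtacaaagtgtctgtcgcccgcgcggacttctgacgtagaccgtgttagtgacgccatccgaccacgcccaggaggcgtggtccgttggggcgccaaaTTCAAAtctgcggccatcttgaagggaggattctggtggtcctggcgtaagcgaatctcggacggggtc
Kif22, chr7:127042371-127042540, minus strand: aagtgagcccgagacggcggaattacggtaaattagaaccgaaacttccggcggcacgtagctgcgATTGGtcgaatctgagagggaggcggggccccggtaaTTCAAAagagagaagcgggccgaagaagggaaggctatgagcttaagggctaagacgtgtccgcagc
Kif23, chr9:61946750-61946919, minus strand: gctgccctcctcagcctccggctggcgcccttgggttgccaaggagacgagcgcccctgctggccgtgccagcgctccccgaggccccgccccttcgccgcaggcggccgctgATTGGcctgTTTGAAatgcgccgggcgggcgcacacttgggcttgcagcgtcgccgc
Kif2c, chr4:117178723-117178892, minus strand: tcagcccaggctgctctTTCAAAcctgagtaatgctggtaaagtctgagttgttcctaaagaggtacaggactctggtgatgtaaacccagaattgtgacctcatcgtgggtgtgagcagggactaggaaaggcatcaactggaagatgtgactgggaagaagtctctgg
Kif20b, chr19:34922238-34922407, plus strand: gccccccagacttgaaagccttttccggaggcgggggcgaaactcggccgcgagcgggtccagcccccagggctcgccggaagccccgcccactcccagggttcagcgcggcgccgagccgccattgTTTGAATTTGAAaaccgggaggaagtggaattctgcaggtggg
Kif3c, chr12:3365012-3365181, plus strand: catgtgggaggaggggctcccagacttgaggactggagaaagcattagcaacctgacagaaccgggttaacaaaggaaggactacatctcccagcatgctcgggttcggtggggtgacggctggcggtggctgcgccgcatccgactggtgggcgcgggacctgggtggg
Kif26a, chr12:112146088-112146257, plus strand: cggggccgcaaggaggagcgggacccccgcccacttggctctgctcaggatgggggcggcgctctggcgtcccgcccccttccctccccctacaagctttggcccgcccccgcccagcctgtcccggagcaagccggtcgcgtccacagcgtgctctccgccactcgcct
Counting the start as 1 and naming the first base of the match, TTTGAA lies at -19 in Kif15, at -17 in Kif22, at 3 in Kif23 and at -103 in Kif2c. Kif20b has a pair of adjoining copies, at 8 and 14. Kif3c and Kif26a have neither motif in these stretches.

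The neuronal transport kinesins were higher in ALK/MYCN tumours by a median of 0.50 (9 genes), with 7 of 9 differences above 0. Kif3c, Kif1b, Kif21a and Kif5a rose. The median was 0.183, with 2 genes called and Kif1b and Kif5a no longer among them, when the kept probes of a gene were averaged. It was 0.305 with arrays scaled to a common spread and 0.770 in the tumour channel alone. Kif1a and Kif5c did not pass in the ratio. The reference channel of Kif1a, Kif5a and Kif5c also differed between the groups, and its values follow the ratios.

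Kif3c, a neuronal motor of the kinesin-2 family, had 2.30, 2.23, 1.97, 2.76 and 2.52 in ALK/MYCN tumours, against 1.03, 0.97, 1.22, 0.97 and 1.17 in MYCN tumours. Every ALK/MYCN tumour was well above every MYCN tumour. The difference was 1.28 ± 0.14 (SE, n = 5 each; limma adjusted p = 4.6e-04), a 2.44-fold rise, and it was called in all 25 alternative analyses.

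Kif1b, whose isoforms carry mitochondria or synaptic vesicle precursors and whose beta isoform has been described as a tumour suppressor in human neuroblastoma, had 2.77, 2.75, 2.33, 2.66 and 2.63 in ALK/MYCN tumours, against 1.90, 1.72, 1.86, 1.66 and 1.99 in MYCN tumours. The groups were clearly apart. The difference was 0.80 ± 0.10 (SE, n = 5 each; limma adjusted p = 7.9e-04) on its brighter probe.

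Kif21a, a plus-end motor of axons and growth cones, had 2.09, 1.85, 1.73, 1.62 and 1.95 in ALK/MYCN tumours, against 1.09, 1.08, 1.22, 1.29 and 1.18 in MYCN tumours. The groups did not overlap. The difference was 0.68 ± 0.09 (SE, n = 5 each; limma adjusted p = 0.0012).

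Kif5a, a heavy chain of conventional kinesin found in neurons, had 3.78, 3.77, 3.60, 3.92 and 3.73 in ALK/MYCN tumours, against 3.18, 3.14, 3.41, 3.15 and 3.33 in MYCN tumours. ALK/MYCN 3 was the lowest of its group and still above MYCN 3. The difference was 0.52 ± 0.08 (SE, n = 5 each; limma adjusted p = 0.0020).

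Kif5c, a second neuronal heavy chain, had 4.07, 4.06, 4.01, 4.02 and 3.93 in ALK/MYCN tumours, against 3.86, 3.80, 3.98, 3.75 and 3.79 in MYCN tumours. Only MYCN 3 overlapped the ALK/MYCN range, and the difference was 0.18 (95% interval 0.04 to 0.32; limma adjusted p = 0.055). Kif1a, the motor of synaptic vesicle precursors, had 4.28, 4.26, 4.15, 4.26 and 4.20 in ALK/MYCN tumours, against 4.12, 4.17, 4.22, 4.11 and 4.17 in MYCN tumours. The groups overlapped, and the difference was 0.07 (95% interval -0.05 to 0.19; limma adjusted p = 0.35).

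Kifc2, a minus-end motor of neurons, had 0.92, 0.05, 0.88, 0.90 and 1.28 in ALK/MYCN tumours, against -0.05, 0.25, 0.48, 0.22 and 0.64 in MYCN tumours. The ratio was low in ALK/MYCN 2, where the reference signal of Kifc2 was 10.67 (log2 intensity), against 9.29 to 9.45 on the other arrays. Its tumour channel read 10.80 there, the highest of the 10 tumours. The difference in ratio was 0.50 (limma adjusted p = 0.11) and passed without ALK/MYCN 2. Kif17, a dendritic kinesin-2 motor, had -0.22 (limma adjusted p = 0.15). Kif21b, a relative of Kif21a, was below the reference in every tumour and widely spread, at -4.57 to -2.55 in ALK/MYCN tumours and -4.35 to -2.48 in MYCN tumours, with a difference of -0.52 (limma adjusted p = 0.41). Within the slides, each with a single tumour of at least 1 group, the neuronal median was 0.20, 0.52 and 0.44 on slides 1, 2 and 3.

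Because the reference RNA was the same on every array, its Cy5 signal was examined alone, after the ratios had been seen. Over all genes it differed between the groups for 136 of 22263, or 0.611% (0.463% higher on the ALK/MYCN arrays). Among the 38 kinesins it differed for 4, all higher on the ALK/MYCN arrays: Kif1a, Kif5a, Kif5c and Kif26a. The other 34 did not pass in Cy5, with differences between -0.14 and 0.29. What moved the Cy5 signal of the 4 probes was not tested.

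Kif1a had Cy5 signals of 11.02, 10.84, 10.78, 11.02 and 11.11 (log2 intensity) on the arrays of ALK/MYCN tumours, against 9.37, 9.27, 9.82, 9.19 and 9.87 on those of MYCN tumours. Its tumour channel, Cy3, read 15.10, 14.95, 14.81, 15.02 and 15.12 in ALK/MYCN tumours, against 13.49, 13.40, 14.01, 13.31 and 14.02 in MYCN tumours. Both channels were thus apart without overlap, by 1.45 ± 0.14 in Cy5 and 1.35 ± 0.15 in Cy3 (SE; limma adjusted p = 0.0013 and 5.1e-04), while the ratio of the channels hardly differed.

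Kif5a differed by 1.06 ± 0.12 in Cy5 and 1.36 ± 0.16 in Cy3, against 0.52 in the ratio. Kif5c differed by 0.67 ± 0.08 in Cy5 and 0.77 ± 0.08 in Cy3, against 0.18 in the ratio. For both genes the ratio differed by less than the tumour channel did. Kif1b and Kif3c had Cy5 differences of 0.03 and 0.13 that did not pass, and Cy3 differences of 0.76 and 1.39 close to their ratios. In Cy3 alone 7 of the 9 neuronal transport kinesins rose, where 14.0% of all genes rose, and the added ones were Kif1a, Kif5c and Kifc2. The mitotic counts were the same in Cy3 alone as in the ratios, 0 higher and 5 lower.

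**Figure D3:**
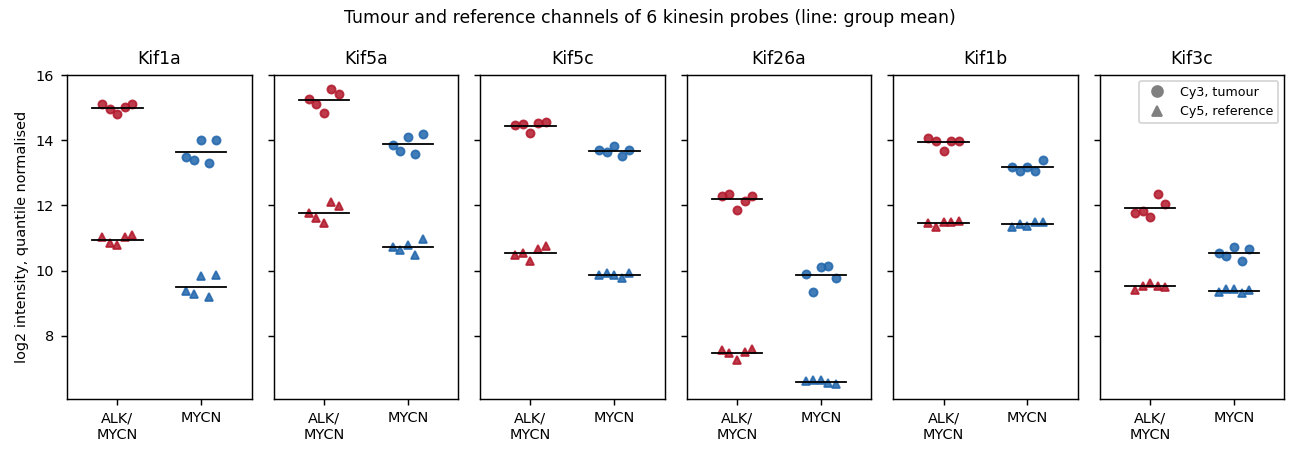
Quantile-normalised log2 intensity of the tumour channel (Cy3, circles) and the reference channel (Cy5, triangles) for 6 kinesin probes on the ALK/MYCN arrays (left, red) and the MYCN arrays (right, blue), with group means as lines. The triangles of Kif1a, Kif5a, Kif5c and Kif26a are higher on the ALK/MYCN arrays. Those of Kif1b and Kif3c differ by 0.03 and 0.13, which did not pass.

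Several genes had a second probe that read differently. The chosen Kif1b probe lies at chr4:148550431-148550490 (build mm9, minus strand, as the files place it). The other lies at chr4:148608412-148608471, upstream on that strand, and read -0.55, -0.35, -0.07, -0.24 and -0.13 in ALK/MYCN tumours, against 0.51, 1.82, -0.14, 0.48 and -0.09 in MYCN tumours. MYCN 2 was the highest and the groups overlapped, and the difference was -0.78 (limma adjusted p = 0.10 over all kept probes). The files pair the probes with different transcript records of the gene. With the mean of the kept probes in place of the brightest, Kif1b differed by 0.0097 and was not called.

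Kif5a had a dim second probe at -0.32 (limma adjusted p = 0.093 over all kept probes), and the mean of its probes was not called either. A dim second probe of Kif1a rose by 0.44 (limma adjusted p = 0.048 over all kept probes), with 2.00 to 2.60 in ALK/MYCN tumours and 1.59 to 2.11 in MYCN tumours. Kif2a, which depolymerises microtubules in growing axons as well as at spindle poles, had 0.05 on its chosen probe. Its other kept probes gave 0.14 and 0.45 (limma adjusted p = 0.14 and 0.0096 over all kept probes). On the probe with 0.45, ALK/MYCN tumours ran between 0.59 and 1.03 and MYCN tumours between 0.23 and 0.52. Both Kif3a probes rose, at 0.67 and 0.73.

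**Figure D4:**
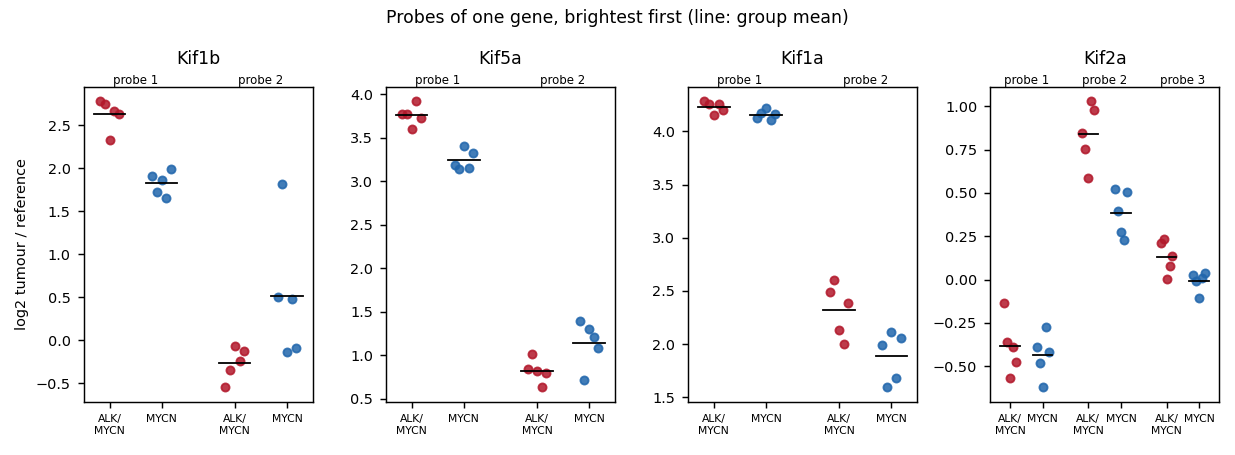
Log2 tumour over reference of each kept probe of Kif1b, Kif5a, Kif1a and Kif2a, brightest probe first, with ALK/MYCN tumours (red) left of MYCN tumours (blue) for each probe and group means as lines; each panel has its own vertical scale. The probes of Kif1b and of Kif5a differ in opposite directions.

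Kif3a, the kinesin-2 motor that builds cilia and also carries cargo in axons, had 0.73, 0.61, 0.59, 0.89 and 0.76 in ALK/MYCN tumours, against 0.06, -0.17, 0.16, -0.05 and 0.22 in MYCN tumours. The groups were apart, and the difference was 0.67 ± 0.09 (SE, n = 5 each; limma adjusted p = 0.0011). Kif3b, its usual partner, differed by 0.15 (95% interval -0.05 to 0.34; limma adjusted p = 0.24), and its other probe gave -0.0028. The other ciliary kinesins, Kif7, Kif24, Kif19a and Kif6, did not pass and lay between -0.31 and 0.01.

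Kif26a, an atypical kinesin without motor activity that in the mouse restrains GDNF-Ret signalling in enteric neurons, had the largest difference of all kinesins in the ratio. It read 4.68, 4.78, 4.49, 4.42 and 4.66 in ALK/MYCN tumours, against 3.16, 2.64, 3.44, 3.59 and 3.23 in MYCN tumours. The groups were far apart, and the difference was 1.39 ± 0.16 (SE, n = 5 each; limma adjusted p = 6.0e-04).

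The reference signal of Kif26a was well above background on 6 of the 10 arrays, so that on the others the ratio rests on a reference signal near background. That signal was weaker on every MYCN array, at 6.52 to 6.64 (log2 intensity), than on the ALK/MYCN arrays, at 7.24 to 7.58. The weak reference signals thus lie on the MYCN side of the difference. In Cy3 alone Kif26a rose by 2.33 ± 0.16, and in Cy5 it differed by 0.88 ± 0.06. In the scanner-processed signals its ratio differed by 0.20 and was not called (limma adjusted p = 0.40). A dim second Kif26a probe gave 0.24 (limma adjusted p = 0.089 over all kept probes). Kif26b, its closest relative, differed by 0.17 (limma adjusted p = 0.25).

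Kif12 had 2.00, 2.11, 2.12, 1.09 and 2.21 in ALK/MYCN tumours, against -0.06, 0.64, 0.71, 0.77 and 3.01 in MYCN tumours. MYCN 5 stood above every other tumour, and the difference of 0.89 (limma adjusted p = 0.22) became 1.39 (limma adjusted p = 0.0064) without it. The reference signal of Kif12 was well above background on 3 of the 10 arrays, so that on the others its ratio, too, rests on a reference near background. The same held for Kif6 and Kif13b, with 0 and 2 such arrays. Kif1c, a motor of Golgi to endoplasmic reticulum transport and of dense-core vesicles, was below the reference in every tumour and widely spread, with -3.41 to -1.71 in ALK/MYCN tumours and -3.25 to -0.69 in MYCN tumours. Its difference was -0.88 (limma adjusted p = 0.21). Without ALK/MYCN 3, MYCN 1 and MYCN 2 it passed as lower, at -1.17.

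The remaining general transport kinesins, Kif5b, Kif13a, Kif13b, Kif16b and Kifc3, lay between -0.19 and 0.01 and did not pass. Kif5b, the heavy chain of conventional kinesin used in most cells, had 1.35, 1.40, 1.36, 0.66 and 0.48 in ALK/MYCN tumours, against 1.19, 1.33, 1.37, 0.95 and 0.96 in MYCN tumours. The low tumours in the ALK/MYCN group were 4 and 5. Kifc5c-ps, named as a pseudogene, differed by 0.06.

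Among genes that work with the mitotic kinesins, calls were all downward. Of 22 measured spindle partners 8 fell (36.4%, where 12.2% of all genes fell) and none rose, with a median of -0.25. They included Plk1, a mitotic kinase (-0.68), Cenpe, a kinetochore kinesin without a Kif name (-0.76), and Tpx2, a spindle assembly factor (-0.44). Of 17 regulators of mitotic genes 3 fell (17.6%, close to the 12.2% of all genes) and none rose. They were Mybl2 (-0.75), Foxm1 (-0.35) and E2f8 (-0.37), and 6 of the 17 differences were positive. Of 16 proliferation markers 12 fell (75.0%, where 12.2% of all genes fell) and none rose, with a median of -0.40, among them the checkpoint kinase Bub1b (-0.80) and the replication helicase subunit Mcm7 (-0.57). The proliferation level ran between -0.29 and -0.08 in ALK/MYCN tumours and between 0.11 and 0.41 in MYCN tumours.

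Among genes that serve transport kinesins, calls were all upward. Of 23 light chains and adaptors 12 rose (52.2%, where 14.2% of all genes rose) and none fell, with a median of 0.24. They included Klc1, a light chain of conventional kinesin (1.23), Kifap3, the accessory subunit of kinesin-2 (1.00), Mapk8ip3, an adaptor of axonal cargo (0.68), and Arl8a, a lysosomal GTPase that recruits kinesins (1.14). Of 23 genes of cytoplasmic dynein and dynactin, the motor that runs the opposite way, 16 rose (69.6%, against 14.2% of all genes), none fell and 7 did not pass, with a median of 0.38 and 3 negative differences. Examples were Dctn1 (1.02), Dync1i2 (0.84) and Pafah1b1, the dynein regulator known as Lis1 (0.76). Sympathetic markers rose in 4 of 12 cases (33.3%) and Schwann cell markers in 2 of 4, where 14.2% of all genes rose. The Schwann level ran between 0.10 and 0.74 in ALK/MYCN tumours and between -0.52 and 0.13 in MYCN tumours, and its part in the transport values was not tested.

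Set side by side in each tumour, the mitotic and neuronal transport levels, as medians, did not overlap between the genotypes, nor did that of the other kinesins. The general transport level overlapped, at -0.21 to 0.24 in ALK/MYCN tumours and -0.03 to 0.22 in MYCN tumours. So did the ciliary level, at -0.01 to 0.12 in ALK/MYCN tumours and -0.11 to 0.02 in MYCN tumours. The mitotic level was -0.25, -0.06, -0.27, -0.03 and -0.20 in ALK/MYCN tumours, against 0.35, 0.01, 0.20, 0.08 and 0.14 in MYCN tumours. The neuronal transport level was 0.37, 0.13, 0.10, 0.11 and 0.23 in ALK/MYCN tumours, against -0.32, -0.31, -0.07, -0.22 and -0.17 in MYCN tumours. The neuronal level exceeded the mitotic level in every ALK/MYCN tumour, by 0.14 to 0.62, and was below it in every MYCN tumour, with gaps of -0.67 to -0.28. With means in place of medians this order held, but ALK/MYCN 2 stood at only 0.014 neuronal and -0.015 mitotic. The nearest MYCN means were -0.0014 neuronal in MYCN 3 and -0.0070 mitotic in MYCN 2. The means of the other kinesins overlapped, at 0.11 to 0.35 in ALK/MYCN tumours and -0.50 to 0.21 in MYCN tumours. These levels are centred per gene and describe tumours against each other. They carry no p, since the classes were chosen with results known, and their separation is not a test of the classes.

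**Figure D5:**
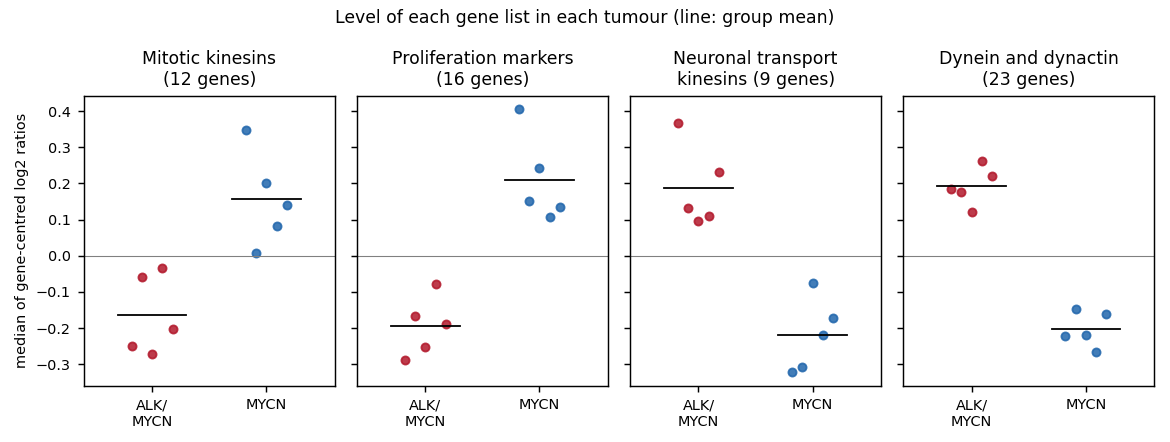
Median gene-centred log2 ratio of the mitotic kinesins, the proliferation markers, the neuronal transport kinesins, and dynein with dynactin in each ALK/MYCN tumour (left, red) and MYCN tumour (right, blue), with group means as lines. The mitotic and proliferation levels are lower and the neuronal transport and dynein levels higher in the ALK/MYCN tumours. The groups do not overlap in any of the 4 panels. Among lists not shown, the spindle partners overlapped (-0.25 to -0.0016 in ALK/MYCN tumours, -0.04 to 0.32 in MYCN tumours). The mitotic gene regulators and the general transport and ciliary kinesins overlapped too, whereas the other kinesins and the light chains with adaptors did not. With means in place of medians the other kinesins overlapped.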

How the data were processed

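Per the file headers, Agilent Feature Extraction 10.7.3.1 gave the spot intensities, and probes are placed on mm9. The deposited table of log2 ratios equals scanner-processed Cy3 over Cy5 within 5.01e-04, so its direction, scale and centring are known, with array medians of -0.186 to -0.035; it served as an alternative. The deposited log10 ratios of the scanner were used only for a comparison with scanner-processed Cy5 over Cy3, where the largest difference was 0.109. No step of the authors after scanning is given in the sources used here. Here the deposited mean signals were corrected for median local background by normexp (offset 50) and normalised by loess within arrays, control spots at weight 0. Outlier spots were left out and 0 spots were saturated. Probes (30857 kept) needed a tumour signal well above background on at least 5 of 10 arrays. limma 3.58.1 in R 4.3.3 tested 22263 genes without a block, and the procedure was tested on simulated data. There it recovered 56.7% of log2 differences of 0.5, 76.1% of those of 1 and 87.9% of those of 2, with 6 false calls. Real differences of 0.5 or less can therefore fail to pass. Well-above-background spots made up 53.8% to 58.7% per array, and the 5 arrays per group limit the precision. Slides are read from array barcodes. Cy3 or Cy5 alone was quantile normalised between arrays; the Cy5 fit was added after the values were seen, as was leaving out ALK/MYCN 3, MYCN 1 and MYCN 2 together. Members, roles and lists were chosen with earlier results of these data known. All members are named; of related lists, members are among the 5 with the smallest p. The labels call the arrays biological replicates from separate mice.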

Additional observations from a re-analysis of the deposited data

Results flagged for a closer look

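Among 76 sets of 5 tumours (38 kinesins in both groups), 7 held a tumour whose log2 ratio stood apart from the rest by Dixon's criterion, which by chance alone happens in about 1 in 20 sets. Kif12 was low in ALK/MYCN 4, at 1.09, and high in MYCN 5, at 3.01. Kif13b was high in MYCN 3, at 0.18, and Kif18a was low in MYCN 2, at 0.36. In ALK/MYCN 2 both Kif18b, at 0.60, and Kifc1, at 0.45, were high. Kif21b was least low in ALK/MYCN 1, at -2.55.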

How the results depend on the processing

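Leaving out each tumour in turn gave 2359 to 2949 higher and 1771 to 2598 lower genes, 6 to 8 higher and 4 to 6 lower kinesins, 0 to 1 higher and 4 to 6 lower mitotic kinesins (1 higher without ALK/MYCN 1), and 4 to 5 higher and 0 lower neuronal transport kinesins. The mitotic median lay between -0.379 and -0.300 and the neuronal one between 0.382 and 0.543. The lowest count of lower genes, 1771, came without ALK/MYCN 5. Median centring gave 4455 higher and 1349 lower genes, 2 lower kinesins, both mitotic, 1 higher mitotic kinesin, and medians of -0.209 and 0.387. Spike-in centring, which put the median of all genes at 0.25, gave 8915 higher and 836 lower genes, 16 higher kinesins and 1 lower, 1 higher and 1 lower mitotic kinesin, 7 higher neuronal ones, and medians of -0.102 and 0.755; Kif19a (0.25) and Kif24 (0.21) turned to called rises. The neuronal median was 0.348 in scanner-processed signals, 0.305 with scaled arrays, 0.770 in Cy3 alone (7 higher) and 0.183 with the mean over probes (2 higher). Without ALK/MYCN 3, MYCN 2 and MYCN 5 there were 1539 lower genes and 3 lower kinesins, all 3 mitotic. Without ALK/MYCN 3, MYCN 1 and MYCN 2, chosen after seeing the data, there were 1905 higher genes, 3 lower mitotic kinesins and a neuronal median of 0.342. Over single kinesins and all alternatives, 843 values kept direction and call, 19 lost the call (9 of them Kif20b), 30 gained one and 54 differences called under neither setting changed sign. The causes were not tested. Replicate numbers did not pair the tumours (same-number correlations between -0.090 and 0.338, and 1 of 5 best with its own number); a replicate block gave 2521 higher and 2096 lower genes, with 6 higher and 5 lower kinesins.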
